A study of Caenorhabditis elegans with 2 samples.

Results

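The microRNA genes of the nematode Caenorhabditis elegans were scored for regions bound by NPAX-4, a protein with a paired-type DNA-binding domain, in late embryos. All 261 genes of biotype miRNA in the Ensembl annotation of the WBcel235 assembly were taken, 1 entry per gene, of 46926 annotated genes in all. A gene was counted in a list of regions when the summit of at least 1 region lay within 500 bp of the gene. Binding was measured by chromatin immunoprecipitation and sequencing with an antibody against GFP, in 2 biological replicates of a single condition. The animals were hermaphrodites of strain OP493, genotype unc-119(tm4063) III; wgIs493, whose insertion expresses NPAX-4 fused at its C terminus to eGFP and FLAG. Whole embryos were collected 4 h after synchronisation by bleaching, so the cell types that gave each region cannot be told apart, and the protein came from a transgene. With no second genotype or treatment, values were compared between replicates and between classes of genes. Replicates are described as biological in the labels, and the control library was not analysed here.

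MicroRNAs are short RNAs cut from hairpin transcripts by Drosha and Dicer and loaded into Argonaute proteins, which they guide to partly matching messenger RNAs. The seed, bases 2 to 8 of the mature strand, sets most of this pairing, so microRNAs with one seed are treated as a family. In worm embryos the mir-35 and mir-51 families are each needed for development, while lin-4 and the let-7 family time the transitions between larval stages. Most microRNA genes are transcribed by RNA polymerase II, either from promoters of their own or inside the introns of host genes.

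In the mir-51 family, mir-51 and mir-52 held the highest-ranked regions at microRNA genes. The mature strands of the whole family are shown first, with the seed in capitals. They were read from the RefSeq genome of WBcel235 at the positions of the annotated mature products.
mir-51: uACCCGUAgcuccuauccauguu
mir-52: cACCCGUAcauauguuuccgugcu
mir-53: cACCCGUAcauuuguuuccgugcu
mir-54: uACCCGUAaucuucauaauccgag
mir-55: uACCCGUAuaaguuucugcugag
mir-56: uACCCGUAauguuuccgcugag
All 6 carry the seed ACCCGUA. They lie at 3 places: mir-51 with mir-53 on chromosome IV, mir-52 alone elsewhere on the same chromosome, and mir-54, mir-55 and mir-56 in a cluster on chromosome X.

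The mir-58 family, related to bantam of flies, includes mir-58a, whose region lay just outside the most stringent list. Bases 2 to 8 are again in capitals.
mir-58a: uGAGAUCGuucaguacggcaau
mir-58b: aGAGAUCAaccauugagauccaa
mir-58c: aGAGAUCAggcaauagguucaaa
mir-80: uGAGAUCAuuaguugaaagccga
mir-81: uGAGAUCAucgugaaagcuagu
mir-82: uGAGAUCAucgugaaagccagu
Bases 2 to 7, GAGAUC, are shared by these 6 genes and by mir-2209a.

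Windows reaching 75 bp to each side of the joint-list summits at mir-51 and mir-52 are given because these are the 2 strongest regions at any microRNA gene. The mir-51 window is IV:11026126-11026276, written 5′ to 3′ along the minus strand on which the microRNA lies, and its capitals mark GGTTCGA. The mir-52 window is IV:14034038-14034188 on the plus strand, and its capitals mark the 3′ mature product of the hairpin. Both were read from the RefSeq genome of WBcel235.
mir-51 window: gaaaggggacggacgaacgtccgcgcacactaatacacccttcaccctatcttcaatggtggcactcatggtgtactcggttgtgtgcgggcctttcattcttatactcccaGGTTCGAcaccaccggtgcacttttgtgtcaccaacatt
mir-52 window: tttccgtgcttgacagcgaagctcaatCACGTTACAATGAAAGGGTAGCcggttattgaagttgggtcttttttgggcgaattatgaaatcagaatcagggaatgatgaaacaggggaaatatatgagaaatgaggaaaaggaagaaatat
GGTTCGA is the start of the B box, the internal promoter element that RNA polymerase III factors read in tRNA genes. In the mir-51 window it stood at IV:11026158-11026164 on the minus strand, inside the annotated ncRNA gene F36H1.17.

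A total of 4 of the 261 microRNA genes had a summit in the most stringent list, in which the authors kept 354 regions by their irreproducible discovery rate (IDR). This was 1.53% of the genes, with a 95% exact Clopper-Pearson interval of 0.419% to 3.88%. The same distance from a summit held for 1.20% of the other nuclear genes, measured at their 5′ ends, and for 0.366% of all nuclear windows of 95 bp, the median length of a microRNA gene. Intervals here and below cover counting error only, and genes that share a region are not independent.

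In the relaxed list made from both replicates together, called the joint list, 54 microRNA genes (20.7%, interval 15.9% to 26.1%) had a summit among 12454 regions. The background was 13.8% of other genes and 12.6% of windows. In the list of replicate 1, 64 genes (24.5%, 19.4% to 30.2%) had a summit among 19207 regions, against 19.1% of other genes and 19.0% of windows. In the list of replicate 2, 75 genes (28.7%, 23.3% to 34.6%) had one among 18799 regions, against 19.4% and 18.5%. A summit in both replicate lists was found at 35 genes (13.4%, 9.52% to 18.2%), against 7.86% of other genes and 6.95% of windows. The joint, replicate 2 and both-replicate intervals lay above both backgrounds, the replicate 1 interval lay above both by less than 1 percentage point, and the IDR-thresholded interval included the gene background. Measured at their own 5′ ends, as the other genes were, microRNA genes gave counts of 4, 54, 59, 74 and 33 in the same order of lists, and the replicate 1 interval, 17.7% to 28.2%, then included both backgrounds. The joint list was made from the same 2 libraries as the replicate lists, so it is not a further replicate. Of the 46629 other genes, 15363 were piRNA genes, whose shares lay below the gene background. At 5′ ends these were 6.89% in the joint list, 11.7% in replicate 2 and 2.83% in both replicates. Genes annotated as ncRNA gave 19.7%, 26.2% and 11.5%, inside the microRNA intervals for those lists. Protein-coding genes gave 15.8%, 21.7% and 9.24%, below those intervals, of which the joint one starts at 15.9%. With microRNA genes also measured at 5′ ends, the both-replicate interval, 8.87% to 17.3%, included the protein-coding share. The joint and replicate 2 intervals, starting at 15.9% and 23.0%, still lay above the protein-coding shares of their lists.

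The share of microRNA genes near IDR-thresholded summits lay below those of tRNA and snoRNA genes and above that of piRNA genes, with intervals that did not overlap. In the IDR-thresholded list the share was 1.53% of microRNA genes, 23.0% of tRNA genes, 15.03% of snoRNA genes, 6.20% of snRNA genes and 2.11% of genes annotated simply as ncRNA. It was 0.026% of piRNA genes and 0.956% of protein-coding genes measured at the 5′ end. In the joint list the microRNA share of 20.7% lay beside 20.9% of snRNA genes and 21.4% of ncRNA genes, below 57.7% of tRNA genes and above 7.03% of piRNA genes. The interval for microRNA genes did not overlap those for tRNA and snoRNA genes in any of the 4 lists.

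**Figure D1:**
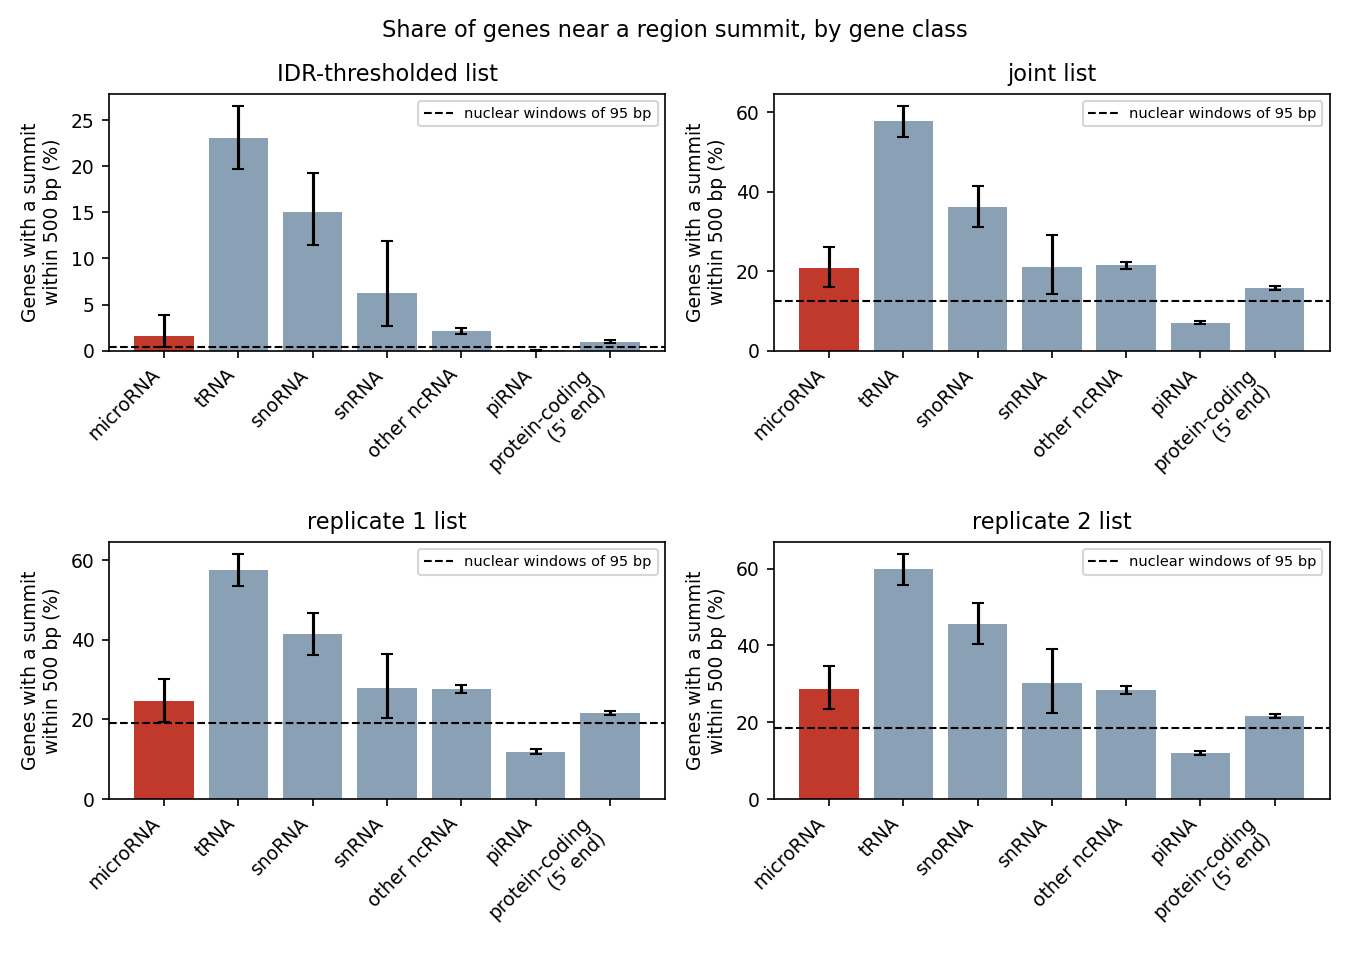
Bars give the percentage of genes of each class with a region summit within 500 bp, in each of 4 deposited lists, with 95% exact intervals as error bars. The dashed line is the share of all nuclear windows of 95 bp. microRNA genes, at 1.53% in the IDR-thresholded list and 20.7% in the joint list, stand far below tRNA genes at 23.0% and 57.7%.

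mir-51 had the highest-ranked region of all microRNA genes. The gene, WBGene00003279, lies at IV:11026013-11026112 on the minus strand, between protein-coding genes. Its signal, a unit of the authors' peak caller whose scale is not stated, was 160.9 in replicate 1 and 138.6 in replicate 2. These values ranked 12 and 21 in their lists, and the joint signal of 297.6 ranked 18. The summits lay 90 bp upstream of the hairpin's 5′ end in replicate 1, 72 bp upstream in replicate 2 and 89 bp upstream in the joint list, so both replicates placed the summit just before the hairpin. All 3 summits fell within F36H1.17, an annotated ncRNA gene of 89 bp on the same strand, at IV:11026131-11026219. The nearest protein-coding 5′ end, that of hrg-5, was 3227 bp away, so the summit was not at an annotated coding promoter.

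mir-52 had the next highest region. The gene, WBGene00003280, lies at IV:14034008-14034107 on the plus strand, also between protein-coding genes. Its signal was 79.5 in replicate 1 and 117.4 in replicate 2, ranks 95 and 38, and 185.1 in the joint list, rank 69. Replicate 2 was the higher-ranked for mir-52 and replicate 1 for mir-51. The strongest summit lay 134 bp downstream of the hairpin's 5′ end in replicate 1 and 44 bp downstream in replicate 2, which is inside the hairpin. A second, weaker region overlapped it in each list, with signal 25.9 in replicate 1, 37.3 in replicate 2 and 44.6 in the joint list. The nearest protein-coding 5′ end, that of Y37A1B.7, was 9667 bp away, and an annotated ncRNA gene, Y37A1B.335, covered 83 bp of the hairpin on the opposite strand.

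mir-1824 (WBGene00077718, I:13513955-13514047, plus strand) lies in an intron of Y87G2A.18 on the strand opposite to that gene. Its region had a signal of 46.7 in replicate 1, 42.95 in replicate 2 and 96.8 in the joint list, ranks 282, 308 and 245. The summit was 436 bp downstream of the hairpin's 5′ end in replicate 1 and 440 bp in replicate 2. That position is 101 bp before the 5′ end of Y87G2A.18 in replicate 1 and 105 bp before it in replicate 2, in the interval that this gene shares with the divergent gene Y87G2A.1. Among the 4 genes this summit was the farthest from the hairpin, and the only one at a protein-coding promoter, defined as 500 bp upstream to 100 bp downstream of a coding 5′ end.

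mir-1830 (WBGene00077723, II:4371838-4371907, minus strand) lies in an intron of paic-1 on the same strand. paic-1 encodes an enzyme of purine synthesis. The strongest region had a signal of 36.5 in replicate 1, 34.9 in replicate 2 and 78.3 in the joint list, ranks 531, 492 and 344. Its summit was 237 bp upstream of the hairpin in replicate 1 and 230 bp upstream in replicate 2, and in the joint list it lay 390 bp inside paic-1 from that gene's 5′ end. Neither replicate alone ranked it within its first 354 regions, whereas the joint list did.

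mir-58a lay just outside the IDR-thresholded list, whose lowest signal was 76.4 and which held the same 354 regions as the top of the joint list. The gene (WBGene00003286, IV:3233254-3233350, plus strand) is in an intron of Y67D8A.2 on the same strand. Its strongest region had a signal of 42.3 in replicate 1, 42.1 in replicate 2 and 74.7 in the joint list, ranks 344, 323 and 367. Both replicates thus placed mir-58a higher than mir-1830, and the joint list placed it lower. The strongest summit was 37 bp downstream of the hairpin's 5′ end, inside the hairpin, in replicate 1 and 217 bp upstream of it in replicate 2. The maps of the 5 loci show that each replicate had regions with summits near both of these positions. The strongest replicate 1 summit also fell within Y67D8A.6, an annotated ncRNA gene on the same strand that covered 50 bp of the hairpin.

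**Figure D2:**
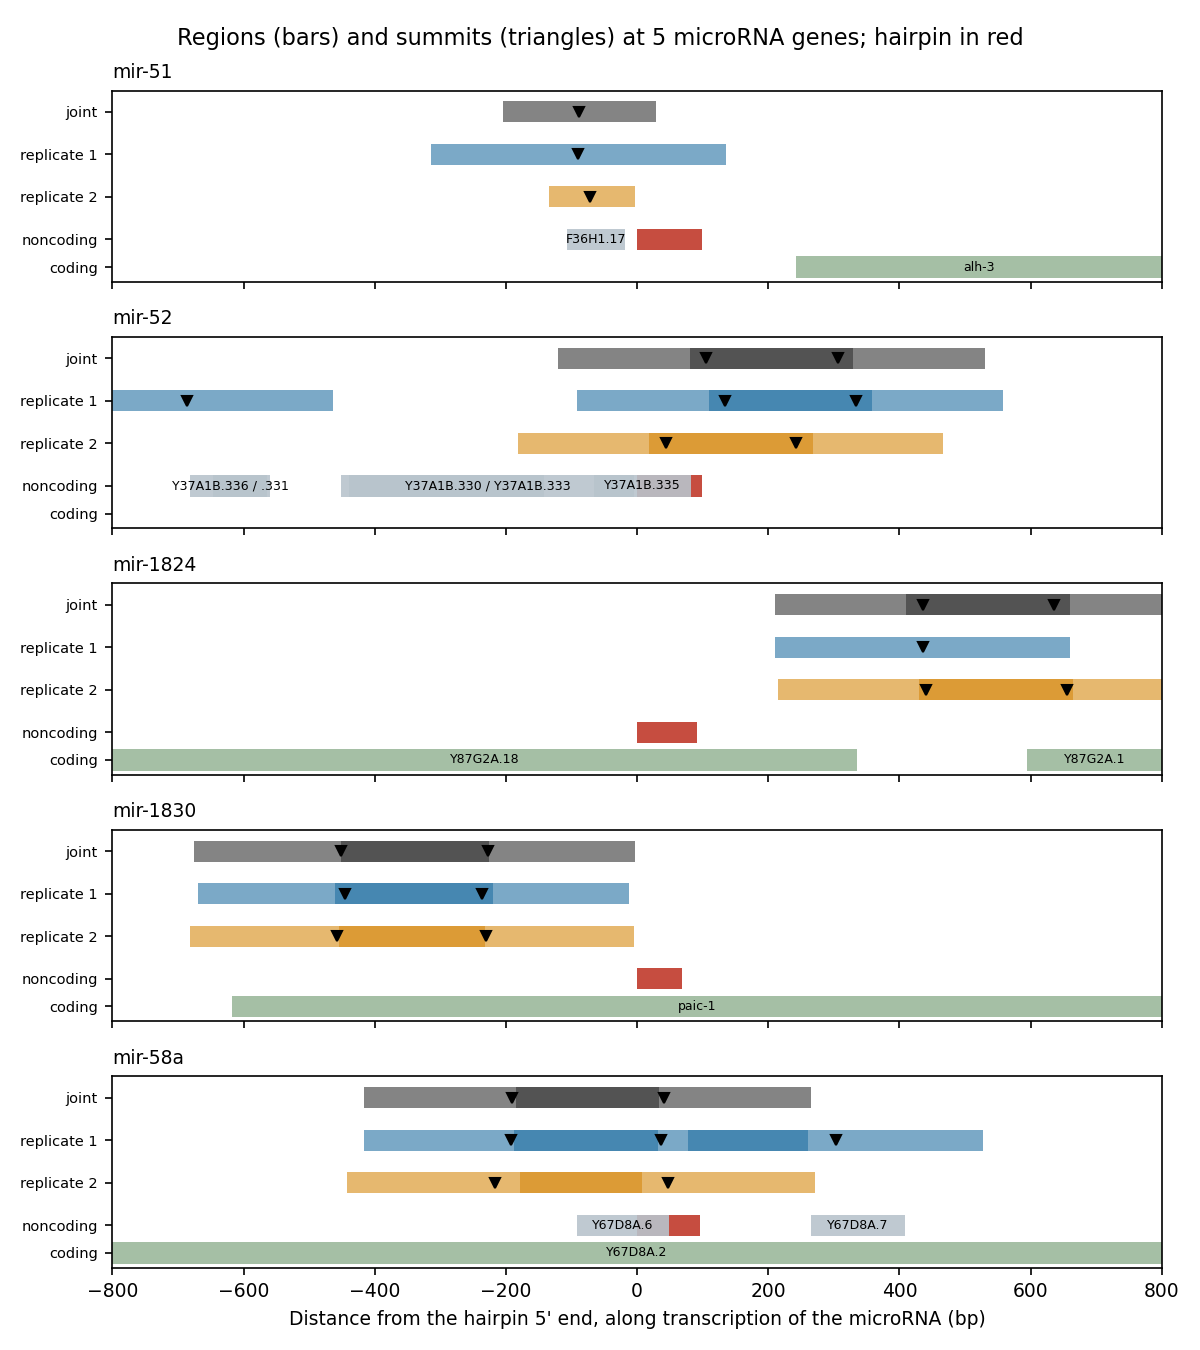
Regions (bars) and their summits (triangles) in the joint list and in each replicate, drawn by distance in bp from the hairpin's 5′ end along the direction of transcription, with the hairpin in red, other noncoding genes in grey and protein-coding genes in green. The joint summit lies 89 bp before the mir-51 hairpin inside F36H1.17, 105 bp after the start of mir-52, 436 bp after the start of mir-1824, and 228 and 191 bp before mir-1830 and mir-58a.

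None of the 4 IDR-thresholded regions had a tRNA, snoRNA, snRNA or rRNA gene within 500 bp of its summit, against 53.6% of all nuclear regions in that list. One of the 4 was at a protein-coding promoter, against 39.9%. In the joint list, 54 distinct regions had a summit within 500 bp of a microRNA gene, the same number as the genes. Of these regions, 1 (1.85%) had such a small RNA gene within 500 bp, against 4.26% of nuclear regions, and 8 (14.8%) were at a coding promoter, against 17.3%. The 54 regions had a median signal of 39.1, against 34.7 for the whole joint list. Of these regions, 37 had a signal above the list's median.

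The microRNA genes next in the joint list after the 4 began with mir-58a at rank 367 and ran to a tie of mir-55, mir-55b and mir-56 at rank 1662, which made 11 genes. mir-5549 had a joint signal of 67.7, rank 433, with 27.1 in replicate 1 and 43.7 in replicate 2, ranks 2282 and 291. Its summit was between the divergent promoters of eef-1A.1, a translation elongation factor gene, and rfc-4, which encodes a subunit of the clamp loader of DNA replication. mir-90, in an intron of K01F9.2, had a joint signal of 61.6, rank 538. Its replicate values stood far apart, with a signal of 15.8 and rank 18157 in replicate 1 and a signal of 36.9 and rank 420 in replicate 2.

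mir-5595, in an intron of the nucleosome remodelling gene nurf-1 on the opposite strand, had joint rank 584 and ranks 1428 and 551 in replicates 1 and 2. mir-4936 had joint rank 900 and ranks 889 and 1608, with its summit in the promoter of nduf-9, which encodes a subunit of mitochondrial complex I. mir-79 had joint rank 983 and ranks 5232 and 580. The pair mir-73 and mir-74 shared a region of joint signal 46.7, rank 1619, which had a counterpart of rank 858 in replicate 1 and none in replicate 2. Of these 11 genes, mir-58a was the only one whose strongest region ranked within the first 354 in both replicates.

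**Figure D3:**
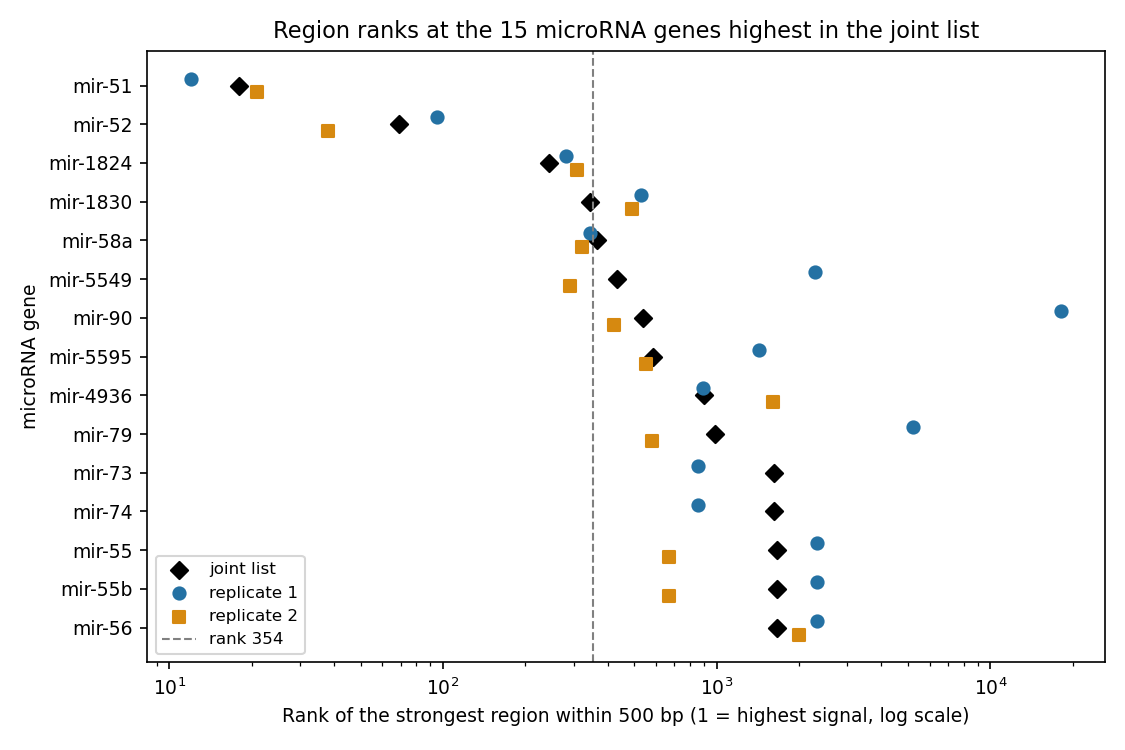
Rank by signal (log scale, 1 is the strongest region) of the strongest region within 500 bp of the 15 microRNA genes highest in the joint list, with diamonds for the joint list, circles for replicate 1 and squares for replicate 2. The dashed line is rank 354. mir-51, mir-52 and mir-1824 are left of the line in every list, mir-1830 in the joint list only, and mir-90 has rank 18157 in replicate 1 against 420 in replicate 2.

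By family, the mir-51 family had summits at 2 of its 6 genes in the IDR-thresholded list, 5 in the joint list, 5 in replicate 1, 6 in replicate 2 and 5 in both. Over all 261 microRNA genes the shares were 1.53%, 20.7%, 24.5%, 28.7% and 13.4% in the same order. The family's counts rested on 2, 4, 3 and 5 distinct strongest regions in the IDR-thresholded, joint, replicate 1 and replicate 2 lists. mir-54, mir-55 and mir-56 lie in an intron of F09A5.3 on the opposite strand. A region of joint signal 46.4, rank 1662, was the strongest near mir-55 and mir-56, and also near mir-55b, which is annotated across from mir-55 on the other strand. mir-54 had a different strongest region, of joint signal 41.6 and rank 2818. mir-53, which shares a strand and 1 cluster with mir-51, had a summit in replicate 2 only, with signal 15.6 and rank 12317. Among the 46 seeds carried by 2 or more genes, ACCCGUA was the only one with IDR-thresholded summits at 2 or more genes.

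The mir-35 family, the other embryonic family, had no summit in the IDR-thresholded or joint list at any of its 8 genes. In replicate 2, 6 genes of the mir-35 to mir-41 cluster (II:11537608-11538404) were counted, all through 1 region of signal 19.4 and rank 5714 whose summit lay in the mir-36 gene. mir-41, at the end of the cluster, was beyond 500 bp from it. mir-42 was counted in replicate 1 only, with signal 16.6 and rank 15784. No gene of this family therefore had a summit in both replicates.

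The timing microRNAs were weakly placed. lin-4, the first microRNA described, had no summit within 500 bp in any list. let-7 had one in replicate 1 only, of signal 21.5 and rank 6564. The annotated let-7 gene spans 1732 bp and is longer than its hairpin, at X:14744173-14744271. The summit lay inside the gene, 436 bp upstream of the hairpin's 5′ end. mir-84 had a joint signal of 33.7, rank 7030, and a replicate 2 signal of 18.6, rank 6682, with none in replicate 1. mir-241 had a summit in replicate 2 only, rank 13212, and mir-48 in no list. In the mir-58 family, mir-80 had a summit in replicate 2 only, rank 12646, and mir-81 and mir-82 had none. mir-58b and mir-58c shared 1 region in each replicate, ranks 10687 and 11583, without one in the joint list.

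Of the single-copy microRNAs with known roles, mir-1, which acts in muscle, had a summit in replicate 2 only, with signal 27.4 and rank 1202, 485 bp upstream of the hairpin. lsy-6, which sets left and right identity in a pair of taste neurons, had one in replicate 2 only, with signal 15.8 and rank 12038. mir-124, a microRNA of sensory neurons that lies in an intron of trpa-1, had a joint signal of 39.0, rank 3767, with rank 1010 in replicate 1 and none in replicate 2. None of these examples was in both replicate lists, whereas mir-79 and mir-90, described above, were.

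The 24 clusters, taken as genes on one strand with gaps of at most 5 kb, held 69 microRNA genes. Of clustered genes 18.8% were in the joint list, against 21.4% of the 192 single genes. In replicate 2 the shares were 36.2% and 26.04%, but clusters often repeat a region: the 6 counted genes of the mir-35 cluster rest on 1, and mir-2208b, mir-2209a and mir-2209c rest on 1 region of joint rank 7292. The largest cluster, 11 genes on chromosome X from mir-4807 to mir-4921, had no summit within 500 bp in any list. Within 1000 bp, 2 of its genes, mir-4923a and mir-4921, had a summit in all 4 lists, the IDR-thresholded one included.

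By place, 153 microRNA genes were intergenic, 67 lay in an intron on the host's strand, 30 in an intron on the opposite strand and 11 overlapped an exon. In the joint list the share was 18.3% of intergenic genes (12.5% to 25.4%), 22.4% of same-strand intronic genes (13.1% to 34.2%) and 9 of 30 opposite-strand intronic genes (interval 14.7% to 49.4%). These intervals overlapped. In replicate 2 the opposite-strand intronic share was 56.7% (37.4% to 74.5%), with 17 of 30 genes, of which 6 were the mir-35 cluster genes that share 1 region. In replicate 1 it was 36.7% (19.9% to 56.1%).

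By chromosome, none of the 74 X-linked microRNA genes had an IDR-thresholded summit, a share whose interval reaches 4.86%, and 4 of 187 autosomal ones (2.14%) did. The order turned within 1000 bp, where 2 X-linked genes, mir-4923a and mir-4921, were added and the shares were 2.7% on X and 2.14% on autosomes. In the joint list the shares were 17.6% on X and 21.9% on autosomes, with overlapping intervals. In replicate 2 they were 17.6% (9.70% to 28.2%) and 33.2% (26.5% to 40.4%), and in replicate 1 they were 20.3% and 26.2%. The mir-35 cluster adds 6 to the autosomal count in replicate 2. Shares over all X-linked and all autosomal genes were not computed here. Whether the differences are particular to microRNA genes therefore cannot be read from these values.

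Summits lay on both sides of the hairpin. In the joint list the strongest summit was upstream of the hairpin at 27 genes, within it at 5 and downstream at 22. The counts were 24, 9 and 31 in replicate 1 and 44, 6 and 25 in replicate 2, so the side with more summits differed between the replicates. The 54 joint genes rested on 47 distinct strongest regions. The plot of summit position against signal shows mir-51 and mir-52 apart from all other genes in signal, on opposite sides of the hairpin start. Their family members mir-54, at 41.6, and mir-55 and mir-56, at 46.4, lay among the other genes.

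**Figure D4:**
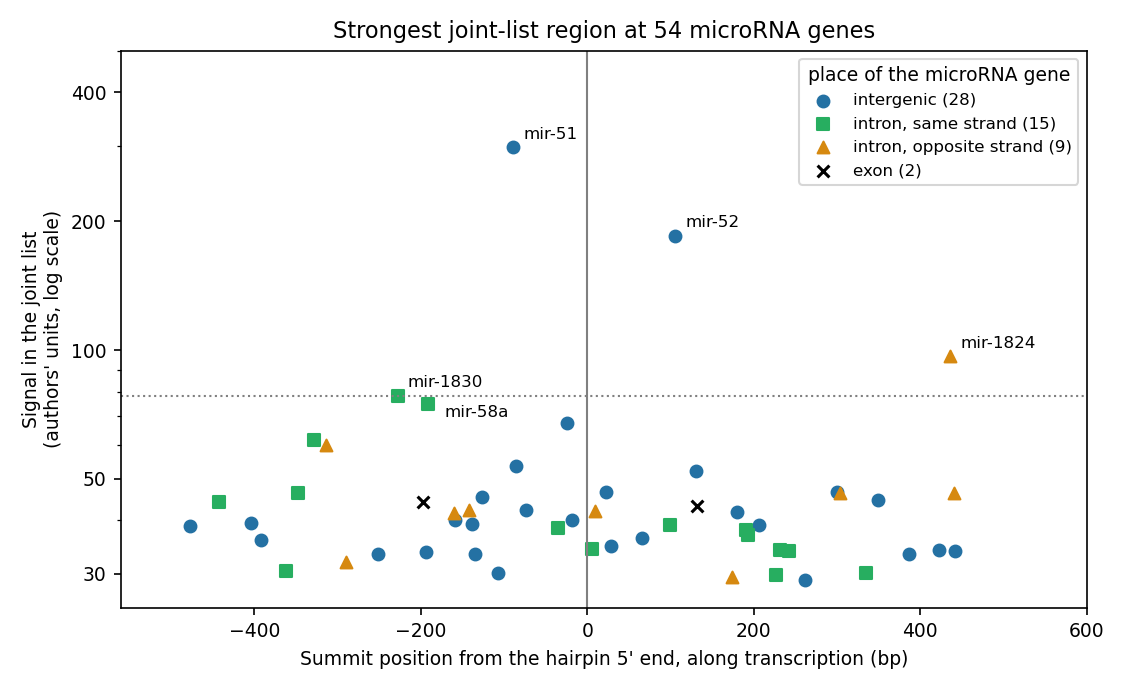
Position of the summit relative to the hairpin's 5′ end (bp, negative is upstream) against joint-list signal (log scale) for the strongest region at each of 54 microRNA genes, with marker shape for the place of the gene. The dotted line is the signal at mir-1830, 78.3, the lowest of the 4 IDR-thresholded genes; mir-51 at 297.6 and mir-52 at 185.1 stand above the rest, which spread from upstream to downstream.

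Between replicates, the 35 genes counted in both made up 54.7% of the 64 in replicate 1 and 46.7% of the 75 in replicate 2. A further 29 were in replicate 1 only and 40 in replicate 2 only, and 156 of the 261 genes (59.8%) were in no list. Of the 46629 other nuclear genes, measured at 5′ ends, 8895 were in replicate 1, 9035 in replicate 2 and 3665 in both. Measured the same way, microRNA genes gave 59, 74 and 33. mir-239a was the 1 gene in the joint list with no summit in either replicate. Across the 35 genes the Spearman correlation of the replicate signals was 0.635, a description over genes that are not independent replicates. It was 0.612 with 1 gene per pair of regions (31 pairs) and 0.434 over the 27 such pairs left without the 4 IDR-thresholded genes. The strongest summits of the replicates were within 200 bp of each other at 16 of the 35 genes and within 50 bp at 7, with a median distance of 224 bp, or 146 bp with 1 gene per pair of regions. Counting any pair of summits near a gene and not only the strongest, 26 of the 35 genes had summits of both replicates within 200 bp of each other. All 4 IDR-thresholded genes were among the 16, with distances from 4 to 90 bp. The IDR selects regions that recur in both replicates, so this closeness is not separate evidence of agreement. Of the 27 pairs left without these genes, 12 were within 200 bp.

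**Figure D5:**
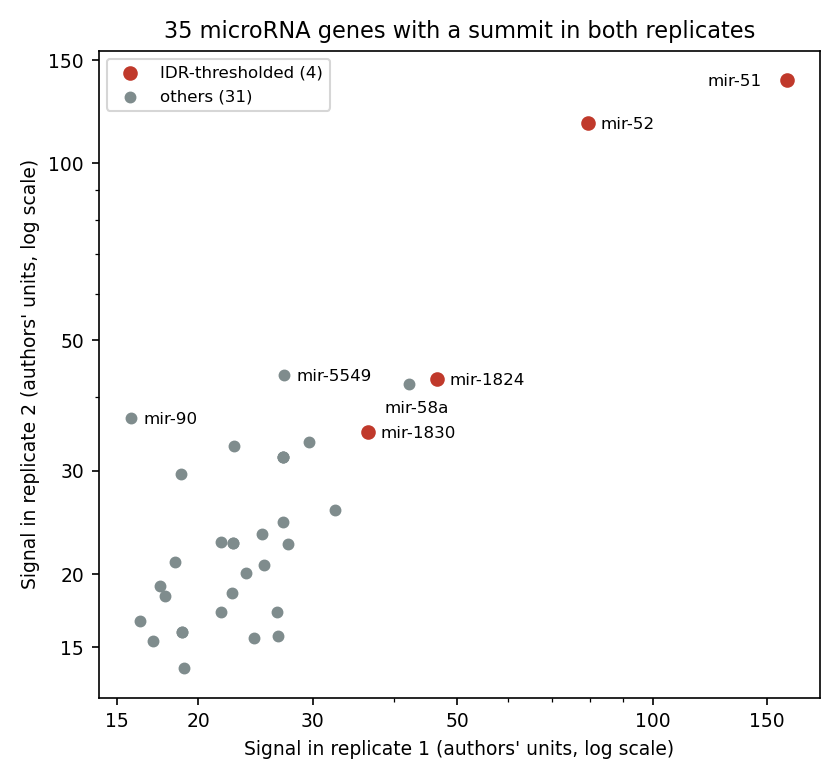
Signal of the strongest region within 500 bp in replicate 1 against replicate 2 (both log scale, authors' units) for the 35 microRNA genes with a summit in both lists, with the 4 IDR-thresholded genes in red. mir-51 at 160.9 and 138.6 and mir-52 at 79.5 and 117.4 are apart from the others, and mir-90 at 15.8 and 36.9 is lowest in replicate 1.

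Words were counted on both strands in the windows of 75 bp to each side of the summits. TCACGC, the core of sequences bound by paired domains, was in none of the 4 IDR-thresholded windows at microRNA genes, against 4.96% of all 343 nuclear windows of that list. In the joint list it was in 3 of 54 windows (5.56%), among them that of mir-84, against 373 of all 12439. GTTCGA was in 1 of the 4 windows, against 32.9%, and in 4 of the 54 (7.41%), against 6.33%. GGTTCGA, which contains GTTCGA, was in 1 of the 4, against 24.8%, and in 2 of the 54 (3.70%), against 2.46%. In both lists the mir-51 window shown above was among those with the word. Mean GC content was 44.0% in the 4 windows, against 46.3% in the whole list, and 40.9% in the 54 joint windows, against 37.01%.

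An annotated ncRNA gene lay within 500 bp of 69 of the 261 microRNA genes. This held for 13 of the 54 genes with a joint summit (24.1%) and for 56 of the 207 without one (27.1%). The other lists ran the opposite way, with 31.2% of genes with a summit against 24.9% without one in replicate 1, and 33.3% against 23.7% in replicate 2. For genes with a summit in both replicates it was 31.4%, against 25.7% of the rest. It held for mir-51 and mir-52 but not for mir-1824 and mir-1830.

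Genes that make microRNAs or act with them were scored at their 5′ ends. None of 17 such genes had an IDR-thresholded summit, 5 had one in the joint list, 9 in replicate 1, 6 in replicate 2 and 3 in both. All 19985 annotated protein-coding genes gave 0.981%, 15.8%, 21.5%, 21.7% and 9.24% in the same order, whereas the 0.956% given earlier was over the 19973 nuclear ones. alg-2, which encodes a microRNA Argonaute, was highest, with a joint signal of 67.1, rank 440, and ranks 3389 and 418 in replicates 1 and 2. ccf-1, a deadenylase subunit, had joint rank 1432 with ranks 848 and 2409. drsh-1, the worm Drosha, dcr-1, the Dicer, and lin-28, an RNA-binding protein that blocks let-7 processing, had joint ranks 7414, 12329 and 5616, each with a summit in 1 replicate. alg-1 had none in any list.

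Of 19 known targets of worm microRNAs, none had an IDR-thresholded summit, 5 had one in the joint list, 6 in replicate 1, 5 in replicate 2 and 3 in both. The shares of all protein-coding genes were again 0.981%, 15.8%, 21.5%, 21.7% and 9.24%. lin-66 had joint rank 1062, with ranks 18099 and 401 in replicates 1 and 2. lin-14, the target of lin-4, had joint rank 1128, with ranks 4131 and 2668 and summits 9 and 11 bp upstream of its 5′ end. hbl-1, a target of the let-7 family, had joint rank 2457, with none in replicate 1 and rank 2055 in replicate 2. lin-41, the target of let-7, had none in any list.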

How the data were processed

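The authors deposited lists of regions on 2 genome builds, and the 4 ce11 lists were used: 1 per replicate, made with a control, 1 of both replicates together, and the IDR-thresholded list, per the deposited file descriptions. Which aligner, peak caller and IDR cutoff were used is not given in the sources used here. A region has the authors' signal value, of unstated scale, used only to rank and describe regions within a list, and a summit offset. The lists give no read counts, so the depth is unknown.

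Genes came from Ensembl release 115 on WBcel235, the assembly of ce11, with 12 symbols from RefSeq, and sequences from the RefSeq genome. Coordinates are 1-based. Distances ran from summits to gene bodies, or to 5′ ends for protein-coding and background genes. 1 gene of an 18-gene list matched no symbol. Genes named are those with an IDR-thresholded summit, the next 10 in the joint list (11 with a tie), those in the top 354 of a replicate, and lin-4, lsy-6, mir-1 and the let-7, mir-35, mir-51 and mir-58 families. mir-124, mir-58b, mir-58c, mir-239a, mir-4807, mir-4921, mir-4923a and the mir-2208 and mir-2209 genes were named after their values were seen. The members, lists and rule were chosen with earlier results of these data known. No test between conditions was possible with 1 condition, and none was made between gene classes. The counting was tested on simulated summits. Alternatives changed the distance, anchor, list and regions left out. Software was scipy 1.17.1 and matplotlib 3.10.9 for intervals and plots, with pandas 2.3.3 and numpy 2.4.6 under Python 3.11.15.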

Additional observations from a re-analysis of the deposited data

How the results depend on the processing

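Of 46 recounts under other settings, 36 stayed within 1.5 times the reported count and 10 did not; the causes for these 10 were not tested beyond what each setting does. Within 250 bp, the replicate 2 count was 49 and the both-replicate count 20. Within 1000 bp, the joint, replicate 1, replicate 2 and both-replicate counts were 90, 104, 116 and 67, and the IDR-thresholded count was 6, with mir-4923a and mir-4921 added. The share of nuclear windows of 95 bp moved too. For the joint list, 15.3% of microRNA genes stood against 7.06% of windows at 250 bp, and 34.5% against 22.3% at 1000 bp. At 250 bp the shares were 18.8% against 10.5% in replicate 2 and 7.66% against 3.06% in both. At 1000 bp they were 39.8% against 32.6% in replicate 1, 44.4% against 32% in replicate 2 and 25.7% against 15.8% in both. The IDR-thresholded list gave 2.3% against 0.695% at 1000 bp. With only the regions above the median signal of each list, the counts were 2 in the IDR-thresholded list (mir-51 and mir-52), 41 in replicate 1 and 23 in both. When a region had to overlap the gene in each replicate, 18 genes were left. Using as many regions of a single replicate as each list holds gave 4 to 5 genes for the IDR-thresholded list and 50 to 65 for the joint list. mir-51, mir-52 and mir-1824 were among the 4 or 5 with either replicate, mir-58a was too, and mir-1830 was with neither. Leaving out summits at coding promoters, an alternative added after the data were seen, removed mir-1824 and left 3 IDR-thresholded genes. No paired analysis was possible because the samples form 1 group. Read depth is not in the files, so a gene without a summit cannot be called unbound.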
